A study of Mus musculus with 13 samples.

Results

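The VEGF, PGF and angiopoietin genes are 10 genes for secreted factors that direct the growth and stability of blood and lymphatic vessels, together with 1 of their receptors. They were chosen by name, though with earlier results of these data known. Their symbols were matched to the gene identifiers of the files by the mouse GRCm39 annotation: Vegfa, Vegfb, Vegfc, Vegfd, Pgf, Angpt1, Angpt2, Angptl2, Angptl4 and Flt1. All 10 were found among the 57010 genes listed, and all 10 were among the 15034 that had enough counts to be tested.

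RNA was sequenced from wild-type mouse embryonic fibroblasts (MEFs) in 4 groups of 3 mice, numbered 4, 5 and 6 in every group. Control MEFs were untreated, and senescent MEFs were made with 2 µM etoposide, a topoisomerase inhibitor that breaks DNA, after which they were kept in culture without the drug. The other groups were senescent MEFs given Fucoidan-FV, a sulfated polysaccharide of brown algae, at 100 or 300 µg/mL for 12 h before RNA was taken. Control mouse 5 has 2 libraries, 5(1) and 5(2), which were summed, and no group of non-senescent cells with fucoidan was analysed here. These are fibroblasts in culture with no vessels around them, so the values describe what the cells transcribe and say nothing of protein or of vessels. Because the RNA of many cells was pooled, fewer cells with a transcript and less transcript per cell cannot be told apart.

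In textbook terms, VEGF-A acts through the receptor tyrosine kinase VEGFR2 (Kdr) to drive endothelial growth and permeability, while VEGFR1 (Flt1) binds VEGF-A, VEGF-B and PGF and can hold VEGF-A away from VEGFR2. VEGF-C and VEGF-D act mainly through VEGFR3 (Flt4) on lymphatic endothelium. Angiopoietin-1 activates the receptor TIE2 (Tek) and keeps vessels quiet and tight, angiopoietin-2 counters it in many settings, and the angiopoietin-like proteins are secreted relatives that do not bind TIE2.

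The labels held against known genes. Cdkn1a, the gene of the cell cycle inhibitor p21, went from 468 ± 83.2 to 1652 ± 187 CPM (counts scaled by library size and between libraries; mean ± SD, n = 3) from control to senescent MEFs, and Lmnb1, a nuclear lamina gene lost in senescence, from 29.2 ± 16.6 to 1.81 ± 0.585 CPM. The 12 fibroblast markers summed to between 32864 and 56756 CPM in each sample. That sum was made up mostly of Fn1, which averaged 25338 CPM in control and 34506 CPM with 300 µg/mL, so it says little of the others. In control, Col1a2 averaged 3760 CPM, but Lum only 0.0610 CPM and Dcn 1.064 CPM. Of 15 endothelial markers, 12 averaged under 1 CPM in control and in senescent MEFs, 11 with 100 µg/mL and 10 with 300 µg/mL Fucoidan-FV, and the summed level was 55.7 to 66.8 CPM in control, 85.4 to 143 in senescent, 89.3 to 135 with 100 µg/mL and 103 to 136 with 300 µg/mL. Libraries held 22782536 to 31278750 counts. They also differed in a way that the groups do not fully explain. The 792 genes with over 95% of their exonic bases in a single annotated transcript deviated together. Their median ran from −1.53 (control mouse 6) to 1.22 (100 µg/mL, mouse 5) on the log2 scale. The next highest value was 1.09, in mouse 4 of the same 100 µg/mL group, whose mouse 6 had −0.23. The 5930 genes with under 50% of their exonic bases in a single transcript deviated by −0.17 to 0.17. That share was 89.1% for Angpt2, 89.0% for Angpt1, 82.1% for Flt1, 78.0% for Vegfd, 77.5% for Vegfc and 75.5% for Angptl2, against 47.5% for Angptl4, 45.0% for Vegfb, 28.4% for Pgf and 9.72% for Vegfa.

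The bases in front of Pgf, Angpt1 and Vegfd are shown because only for these 3 members did the treated and untreated senescent samples not overlap at either dose. Vegfd, unlike the other two, did not pass the test at these doses. Each sequence is the 250 bases before the first annotated base of the gene, read 5′ to 3′ on the gene's strand from the GRCm39 genome. Capitals mark matches, on either strand, to the motifs searched: ACGTG and GCGTG (the core of a hypoxia response element), TGANTCA (AP-1), GGGCGG (GC box) and AGGTCA (nuclear receptor motif). The windows lie at chr12:85224565-85224814 on the minus strand for Pgf, chr15:42540418-42540667 on the minus strand for Angpt1 and chrX:163155990-163156239 on the plus strand for Vegfd.
Pgf: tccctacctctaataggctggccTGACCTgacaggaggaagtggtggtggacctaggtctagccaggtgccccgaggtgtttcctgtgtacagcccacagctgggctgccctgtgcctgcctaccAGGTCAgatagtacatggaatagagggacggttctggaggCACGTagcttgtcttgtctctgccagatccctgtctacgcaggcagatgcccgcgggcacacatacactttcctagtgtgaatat
Angpt1: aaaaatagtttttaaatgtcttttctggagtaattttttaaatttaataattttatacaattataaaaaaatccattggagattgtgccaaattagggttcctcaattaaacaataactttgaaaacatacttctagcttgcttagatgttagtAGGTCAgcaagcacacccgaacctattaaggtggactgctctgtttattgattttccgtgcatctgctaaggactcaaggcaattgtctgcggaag
Vegfd: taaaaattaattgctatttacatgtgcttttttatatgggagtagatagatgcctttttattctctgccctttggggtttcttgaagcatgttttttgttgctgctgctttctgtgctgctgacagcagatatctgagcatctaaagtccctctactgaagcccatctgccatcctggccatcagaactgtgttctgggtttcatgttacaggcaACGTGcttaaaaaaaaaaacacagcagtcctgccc
Pgf had 2 matches to AGGTCA and 1 to ACGTG, Angpt1 had 1 to AGGTCA, and Vegfd had 1 to ACGTG. Over the windows of 14995 tested genes, 12.4% held AGGTCA, 19.4% ACGTG, 34.8% GCGTG, 38.4% GGGCGG and 5.13% TGANTCA. Among the windows of the 10 genes, AGGTCA was found in 3, ACGTG in 4, GCGTG in 3, GGGCGG in 5 and TGANTCA in 0. The GC content was 56.8% for Pgf, 41.6% for Vegfd and 32.8% for Angpt1, with a median of 53.6% over all windows. All 250 bases of the Angpt1 window lie in an exon of Gm17473, a long noncoding RNA of the opposite strand, which also shares 11.3% of the exonic bases of Angpt1.

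Levels of different genes were compared per length, as the deposited TPM, which scales counts by transcript length and library size. Vegfa and Angptl2 were the most abundant members in every group. Vegfa stood at 184 ± 77.7 TPM in control, 174 ± 45.3 in senescent, 181 ± 8.14 with 100 µg/mL and 195 ± 15.8 with 300 µg/mL. Angptl2, a pro-inflammatory secreted relative of the angiopoietins, stood at 175 ± 15.6, 173 ± 73.1, 238 ± 40.3 and 203 ± 46.8 TPM. These neighbours differed beyond their spread only with 100 µg/mL, where the lowest Angptl2 value (192 TPM) lay above the highest Vegfa value (188 TPM).

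The order of the other 8 changed between groups. Control MEFs had Pgf at rank 3 with 17.6 ± 5.18 TPM, then Angptl4 (14.7 ± 9.11), Vegfb (10.5 ± 1.96) and Flt1 (8.08 ± 1.24). Next came Vegfc (2.35 ± 2.31), Angpt2 (2.07 ± 1.28) and Vegfd (1.34 ± 1.16), with Angpt1 last at 0.158 ± 0.103 TPM. Angptl4 overlapped both Pgf and Vegfb there, and Vegfc, Angpt2 and Vegfd overlapped each other. With 100 µg/mL, Vegfd stood at rank 3 (48.1 ± 8.49 TPM) in place of 9. At that dose Angpt1 stood at rank 6 (15.1 ± 2.35 TPM) in place of 10, and Pgf at rank 8 (7.97 ± 0.281 TPM). With 300 µg/mL the values were 36.0 ± 4.86 TPM for Vegfd, 10.2 ± 3.64 TPM for Angpt1 and 8.10 ± 1.64 TPM for Pgf. Their ranks were 3, 7 and 8. At both doses Vegfd overlapped Angptl4 and Angpt1 overlapped Flt1. With 300 µg/mL Angpt1 also overlapped Pgf, and Pgf overlapped Angpt2. The mice do not separate these ranks.

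**Figure D1:**
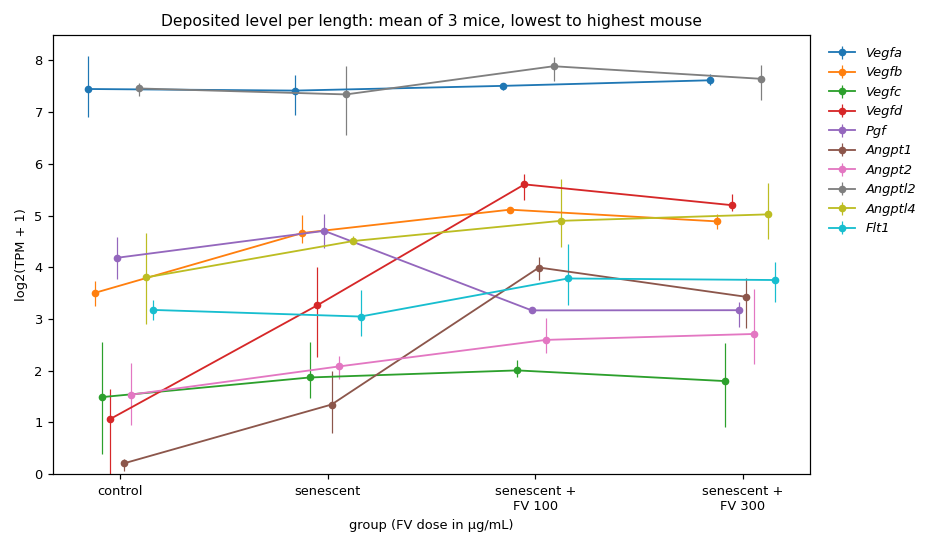
Level per length of the 10 genes, as log2(TPM + 1), in the 4 groups; points are means of 3 mice and bars run from the lowest to the highest mouse. Vegfa and Angptl2 stay at the top in every group. Between control and 100 µg/mL Fucoidan-FV, Vegfd climbs from 1.34 to 48.1 TPM and Angpt1 from 0.158 to 15.1 TPM, and Pgf drops to 7.97 TPM.

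The first comparison asked which of the genes differ between senescent and control MEFs. A gene was called where the adjusted p of edgeR's quasi-likelihood test was under 0.05 and the absolute log2 fold change was over 1. Vegfb, Vegfd and Angpt1 rose, so that 3 of the 10 were called higher and 0 lower, against 4.47% of all 15034 genes called higher and 3.95% lower. The median log2 fold change was 0.65 over the 10 genes and 0.07 over all genes tested. For 4 of the 10, and for 27.1% of all genes, every sample of 1 group lay on the same side of every sample of the other.

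Angpt1 moved most. Its values were 0.722, 0.609 and 0.141 CPM in control mice 4, 5 and 6, and 7.03, 2.97 and 2.31 CPM in the senescent ones, 8.10-fold higher (log2 fold change 3.02, SE 0.55, adjusted p = 0.00328). Every senescent sample lay above every control sample, and mouse 4 was the highest in both groups. The control values rest on few counts, 3 in mouse 6 and 4 and 27 in the libraries 5(1) and 5(2) of mouse 5. In those 2 libraries the genes with single transcripts deviated by −1.22 and 0.88, and in control mouse 6 by −1.53. With offsets for that share in the fit, the log2 fold change was 3.14 (adjusted p = 0.00045). Without senescent mouse 4 it was 2.36, and with library 5(1) alone for control mouse 5 it was 3.61, and the gene was called in both.

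Vegfd, the lymphatic growth factor also named Figf, stood at 2.25, 1.90 and 0 CPM in control and at 8.18, 11.3 and 4.25 CPM in senescent MEFs. On the log2 scale this is a rise of 2.48 (SE 0.73), at an adjusted p of 0.0433. The count of 0 in control mouse 6 allows a level of up to 0.141 CPM, from 3 counts, for counting error only. This call sat close to the threshold: with the mouse as a replicate block the log2 fold change was 2.57 and the adjusted p 0.0622, and over 17 alternatives the adjusted p ran from 6.38e-06 to 0.241 and the call held in 10. It was lost without control mouse 4 (log2 fold change 2.93), control mouse 5 (2.80), senescent mouse 4 (2.44) or senescent mouse 5 (2.16).

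Vegfb, whose protein binds VEGFR1 and is tied to fatty acid handling and cell survival, rose from 9.18, 7.87 and 6.63 CPM to 13.6, 15.9 and 27.4 CPM. The log2 fold change was 1.26 (SE 0.30, adjusted p = 0.0161). Senescent mouse 6 was the highest, and without it the log2 fold change was 0.91 (adjusted p = 0.0157), under the fold threshold. With only control and senescent samples in the fit none of the 3 genes was called, at adjusted p values of 0.0693 for Angpt1, 0.0887 for Vegfb and 0.241 for Vegfd.

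Vegfa, the principal vessel growth factor, did not pass the test: it stood at 213, 292 and 481 CPM in control and 286, 339 and 261 CPM in senescent MEFs, a log2 fold change of −0.15 with a 95% interval from −0.69 to 0.38. Pgf, the placental growth factor, had 15.0, 27.6 and 21.0 CPM in control and 20.0, 28.5 and 42.6 CPM in senescent MEFs, higher in the senescent sample of each of the 3 mice but with overlapping groups (log2 fold change 0.52, 95% interval −0.18 to 1.22). Angpt2 had 1.40, 1.08 and 1.69 CPM against 2.27, 1.85 and 3.74 CPM. Its groups did not overlap, yet at 33 to 110 counts a sample the log2 fold change of 0.92 had an SE of 0.56 (adjusted p = 0.339). As 70.7% of the exonic bases of Angpt2 lie opposite Mcph1 and the sources used here do not say whether counting used strand, reads of the 2 genes may not be told apart. Vegfc (0.56 to 3.44 CPM over both groups), Angptl2 (233 to 398 CPM), Angptl4 (7.78 to 41.8 CPM) and Flt1 (13.6 to 23.6 CPM) overlapped between the groups, with log2 fold changes of −0.05, −0.05, 0.77 and −0.21.

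**Figure D2:**
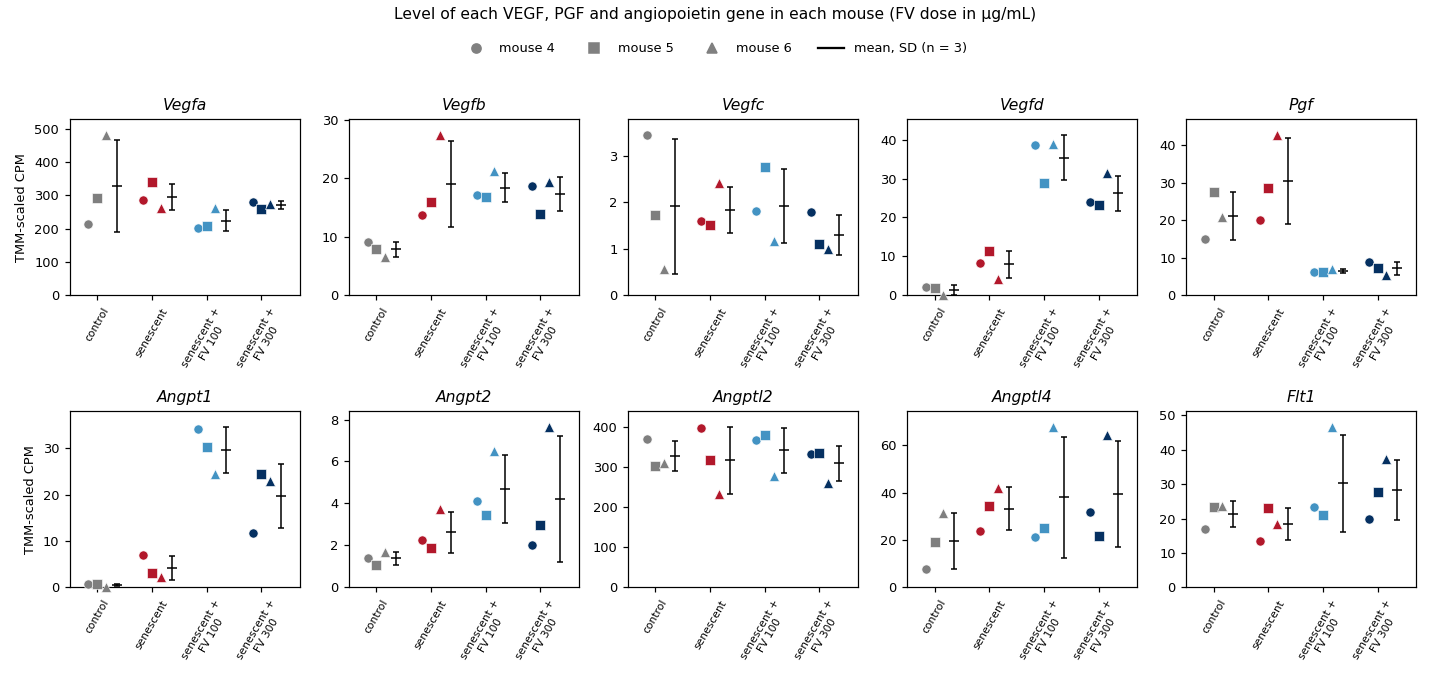
TMM-scaled CPM of each gene in each mouse, 1 panel a gene with its own axis from 0; symbols mark mice 4, 5 and 6, and the black mark and bar give the mean and SD of the 3 mice. Pgf lies at 6.10 to 7.13 CPM with 100 µg/mL Fucoidan-FV under all senescent values of 20.0 to 42.6 CPM, and Angpt1 and Vegfd lie above all senescent values at both doses.

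The second comparison set senescent MEFs with 100 µg/mL Fucoidan-FV against untreated senescent MEFs. Pgf fell and Angpt1 rose. Of the 10 genes, 1 was called higher and 1 lower, against 1.1% and 1.6% of all genes, and 3 showed no overlap, against 26.2%. The median log2 fold change was 0.15 over the 10 genes and −0.02 over all. At 300 µg/mL the same 2 genes, Pgf and Angpt1, were called in the same directions, against 0.752% of all genes called higher and 0.885% lower, and 3 of the 10 did not overlap, against 19.6%. The median was 0.10 over the 10 genes and 0.00026 over all. Both doses were compared with the same 3 untreated senescent samples, so the 2 comparisons are not independent.

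Pgf stood at 20.0, 28.5 and 42.6 CPM in mice 4, 5 and 6 of the untreated senescent group. With 100 µg/mL the 3 values were 6.10, 6.21 and 7.13 CPM, and with 300 µg/mL they were 9.00, 7.25 and 5.52 CPM. The treated samples lay under every untreated senescent sample and under every control sample, whose lowest value was 15.0 CPM. The log2 fold change against untreated senescent cells was −2.23 at 100 µg/mL (SE 0.34, adjusted p = 0.00482), which is 4.68-fold lower, and −2.06 at 300 µg/mL (SE 0.34, adjusted p = 0.00991), 4.18-fold lower. The first call held in all 18 alternatives run on it, and the second in 17 of 18, being lost without mouse 6 of the 300 µg/mL group (log2 fold change −1.90, adjusted p = 0.0656). With 28.4% of its bases in a single transcript, Pgf moved little with the offsets, to −2.20 and −2.08.

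Angpt1 had 7.03, 2.97 and 2.31 CPM in untreated senescent cells and 34.1, 30.3 and 24.3 CPM with 100 µg/mL. The values did not overlap, and the difference was 7.18-fold (log2 2.84, SE 0.51, adjusted p = 0.00956). The 300 µg/mL samples had 11.7, 24.4 and 22.9 CPM, with the lowest in mouse 4 and still above every untreated senescent sample. Here the log2 fold change was 2.25 (SE 0.50, adjusted p = 0.0361), 4.77-fold higher. The genes with single transcripts deviated by 1.09 and 1.22 in mice 4 and 5 with 100 µg/mL and by −1.19 in mouse 4 with 300 µg/mL, the samples with the highest and the lowest treated values of Angpt1. With offsets for that share, the log2 fold changes were 2.34 (adjusted p = 0.00555) and 2.24 (adjusted p = 0.00877).

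The call of Angpt1 at 100 µg/mL held in 16 of 17 alternatives and was lost without senescent mouse 5 (log2 fold change 2.81, adjusted p = 0.0506). Without senescent mouse 4, the highest untreated sample, the log2 fold change rose to 3.68 at 100 µg/mL and 2.99 at 300 µg/mL. At 300 µg/mL it held in 9 of 17, with adjusted p from 2.98e-05 to 0.162, and was lost without senescent mouse 5 (log2 fold change 2.12), senescent mouse 6 (2.02), or mouse 5 (2.07) or mouse 6 (2.13) of the 300 µg/mL group.

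Vegfd was the third gene whose values did not overlap. It went from 8.18, 11.3 and 4.25 CPM to 38.6, 28.8 and 38.9 CPM with 100 µg/mL and to 24.0, 23.2 and 31.4 CPM with 300 µg/mL. Each treated sample lay above each untreated one, but neither difference passed after adjustment: edgeR gave log2 fold changes of 2.16 (SE 0.70) and 1.73 (SE 0.70), at adjusted p values of 0.104 and 0.244. The result at 100 µg/mL passed in 3 of 17 alternatives. These were DESeq2 (2.25, adjusted p = 0.0172), no filter on low counts (2.24, adjusted p = 4.58e-05) and only the 2 groups in the fit (2.26, adjusted p = 0.0332). At 300 µg/mL it passed in 1 of 17, with no filter (1.75, adjusted p = 0.00312). Over the alternatives the adjusted p reached 0.263 and 0.489 at the 2 doses. With offsets for the single-transcript share, the log2 fold changes were 1.83 (adjusted p = 0.129) and 1.71 (adjusted p = 0.200).

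**Figure D3:**
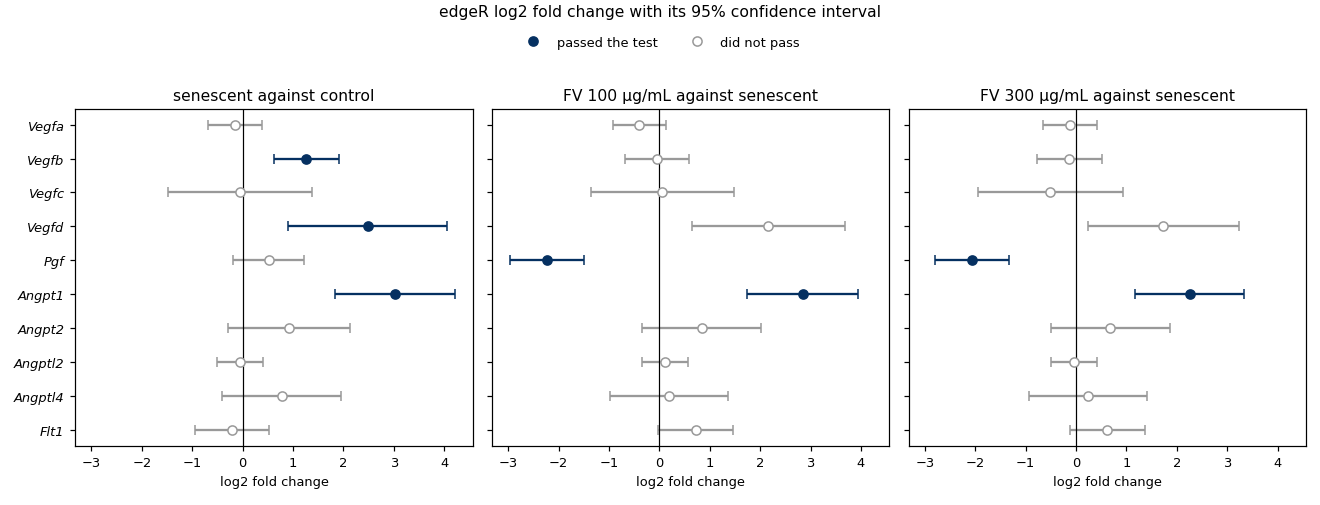
Log2 fold change of the 10 genes in 3 comparisons (x axis), with 95% confidence intervals of the edgeR fit; filled points passed the test. Pgf lies at −2.23 and −2.06 at the 2 doses and Angpt1 at 2.84 and 2.25, whereas Vegfa, Vegfb and Angptl2 lie within 0.4 of 0 on this scale at both doses.

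The other 7 members were not called at either dose by edgeR and had overlapping groups. Vegfa had 203, 209 and 262 CPM with 100 µg/mL and 281, 259 and 274 CPM with 300 µg/mL, against 286, 339 and 261 CPM in untreated senescent cells. Its log2 fold changes were −0.40 (95% interval −0.93 to 0.14) and −0.12 (−0.65 to 0.41), so changes of 2-fold in either direction lie outside both intervals. Vegfb kept a level of 16.8 to 21.2 CPM with 100 µg/mL and 14.0 to 19.4 CPM with 300 µg/mL, with log2 fold changes of −0.04 (−0.68 to 0.60) and −0.13 (−0.77 to 0.51). Angptl2 had log2 fold changes of 0.11 (−0.34 to 0.57) and −0.03 (−0.49 to 0.42).

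Wider intervals belonged to the low or variable genes. Vegfc, at 1.00 to 2.76 CPM in treated cells, had intervals from −1.37 to 1.48 and from −1.94 to 0.93, which leave changes of 2-fold either way undecided. Angpt2 had 4.13, 3.45 and 6.50 CPM with 100 µg/mL and 2.02, 2.95 and 7.63 CPM with 300 µg/mL. Against 2.27, 1.85 and 3.74 CPM in untreated senescent cells its log2 fold changes were 0.84 (−0.34 to 2.02) and 0.68 (−0.50 to 1.86). Angptl4, an inhibitor of lipoprotein lipase that PPAR factors and low oxygen induce, had 21.4, 25.0 and 67.6 CPM and then 31.9, 21.6 and 64.5 CPM, with mouse 6 the highest at both doses and in the other 2 groups, and its log2 fold changes were 0.19 (−0.97 to 1.36) and 0.24 (−0.92 to 1.41). Flt1, the only receptor among the 10, had 23.3, 21.2 and 46.6 CPM and 19.8, 27.8 and 37.2 CPM against 13.6, 23.0 and 18.5 CPM, at log2 fold changes of 0.72 (−0.02 to 1.47) and 0.62 (−0.12 to 1.36).

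Between the doses no member was called: of all genes tested 0% were higher and 0.00665% lower at 300 than at 100 µg/mL by edgeR, 1 gene in all, and 94 genes had an unadjusted p under 0.05, none of them a member. DESeq2 also called 0 members. Angpt1 was lower at 300 µg/mL in each of the 3 mice, by a log2 fold change of −0.59 with an interval from −1.62 to 0.44, and Vegfd likewise, by −0.44 (−1.89 to 1.02). With offsets for the single-transcript share these log2 fold changes shrank to −0.10 for Angpt1 and −0.12 for Vegfd. For Pgf the difference was 0.16 (−0.55 to 0.87), which leaves out a 2-fold difference between the doses. The intervals of Angpt1 and Vegfd do not.

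Treated senescent MEFs were also set against control MEFs, with the same treated samples as above and control samples shared by both doses. At 100 µg/mL, 4 of the 10 were higher (Vegfb, Vegfd, Angpt1, Angpt2) and 1 lower (Pgf), against 10.3% and 9.38% of all genes. At 300 µg/mL, 3 were higher (Vegfb, Vegfd, Angpt1) and 1 lower (Pgf), against 9.87% and 8.11%. Medians were 0.74 and 0.71 over the 10 genes, with 0.09 and 0.07 over all genes. Angpt1 showed the widest gap, at 58.2-fold with 100 µg/mL (log2 5.86, SE 0.60, adjusted p = 2.58e-05) and 38.6-fold with 300 µg/mL (log2 5.27, SE 0.59, adjusted p = 5.33e-05). For Vegfd it was 25.0-fold (log2 4.64, SE 0.79, adjusted p = 0.000924) and 18.5-fold (log2 4.21, SE 0.78, adjusted p = 0.00171). With library 5(1) alone for control mouse 5, Angpt1 stood at 6.46 and 5.87 on the log2 scale, and without control mouse 4 Vegfd stood at 5.24 with 100 µg/mL. Both genes keep these 2 calls in all 17 alternatives, and for both the steps from control to senescent and from senescent to treated ran in the same direction.

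Pgf went the other way, 3.27-fold lower than control with 100 µg/mL (log2 −1.71, SE 0.34, adjusted p = 0.00226) and 2.92-fold lower with 300 µg/mL (log2 −1.55, SE 0.33, adjusted p = 0.00446), in all 18 alternatives of each. Vegfb differed from control by 1.22 (adjusted p = 0.0094) and 1.14 (adjusted p = 0.0148), close to the 1.26 of untreated senescent cells. These calls of Vegfb held in 18 and 16 of 18 alternatives. The call at 300 µg/mL was lost with library 5(2) alone (0.97) and without mouse 6 of that group (1.05, adjusted p = 0.0590). Angpt2 was called at 100 µg/mL (1.76, SE 0.56, adjusted p = 0.0343) and not at 300 µg/mL (1.60, SE 0.56, adjusted p = 0.0545). The first call held in 8 of 18 alternatives, being lost without control mouse 4 (1.88) or 5 (1.72) and without mouse 4 (1.84), 5 (1.94) or 6 (1.44) of the 100 µg/mL group. It was also lost with the offsets for the single-transcript share (1.25, adjusted p = 0.163) and with offsets and block (1.18). Libraries 5(1) and 5(2) of control mouse 5 held 2 and 53 counts, and the call was lost with either alone (2.16 and 1.40) or with both apart (1.80). At 300 µg/mL Angpt2 was called with DESeq2 (1.61, adjusted p = 0.0122), with at least 10 counts in every sample (1.63, adjusted p = 0.0344), without mouse 4 of that group (1.93, adjusted p = 0.0287) and with the mouse as a block (1.43, adjusted p = 0.0488). With the block Angptl4 was called too (1.08, adjusted p = 0.0409).

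Genes with the most similar pattern were found by Pearson correlation of log2 CPM over the 12 samples, among 12645 genes with a mean of at least 1 CPM. This is a description, since the 12 samples are 4 groups of mice with the same numbers. Nearest to Pgf were Csrp1, a LIM domain protein of the actin cytoskeleton (r = 0.988), Wsb2, a SOCS box protein (0.985), and Rhoc, a small GTPase (0.985). Csrp1 averaged 1953 CPM in untreated senescent cells, 806 with 100 µg/mL and 892 with 300 µg/mL. Nearest to Angpt1 were Gpx3, a secreted glutathione peroxidase (0.991), Gnao1, a G protein subunit (0.989), and Pros1, the anticoagulant protein S (0.981). Gpx3 averaged 26.2 CPM in control, 65.3 in senescent, 133 with 100 µg/mL and 114 with 300 µg/mL. The latter 3 genes hold 57.6% to 79.8% of their bases in a single transcript, and library deviations of genes in that range were not measured. Among the members themselves, Vegfd and Angpt1 correlated at r = 0.935.

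The receptors of these factors were examined as lists. Among 5 VEGF receptors and co-receptors (Kdr, Flt4, Nrp1, Nrp2 and Sdc2), 0 were called in senescence or at either dose, with median log2 fold changes of −0.01, 0.03 and −0.19. Kdr, which carries most VEGF-A signalling in endothelium, averaged 0.63 CPM in control, 0.633 in senescent, 0.435 with 100 µg/mL and 0.25 with 300 µg/mL.

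The angiopoietin receptors Tek and Tie1 were listed with Ptprb, a phosphatase that acts on TIE2, and Svep1, a large matrix protein that binds the TIE receptors. Tie1 had too few counts to be tested. Of the other 3, 2 were called higher at 100 µg/mL (the receptor Tek and the matrix protein Svep1), at a median log2 fold change of 2.10, and 0 at 300 µg/mL, at a median of 1.38. Of all genes, 1.1% were called higher at 100 µg/mL and 0.752% at 300 µg/mL. Tek, the receptor of Angpt1, had 0.863, 0.172 and 0.408 CPM in untreated senescent cells and 4.88, 4.77 and 7.96 CPM with 100 µg/mL, all above the untreated values (log2 fold change 3.58, SE 0.90, adjusted p = 0.0446). With 300 µg/mL the values were 5.20, 5.87 and 3.69 CPM, also without overlap (log2 3.32 with SE 0.89 and adjusted p = 0.0818). Svep1 had 54.8, 17.0 and 16.2 CPM untreated and 157, 129 and 93.7 CPM with 100 µg/mL (2.10, SE 0.51, adjusted p = 0.0402), against 54.4, 100.1 and 74.9 CPM with 300 µg/mL (1.38, SE 0.50, adjusted p = 0.19). Both calls depended on the samples in the fit. That of Tek held in 7 of 17 alternatives, with an adjusted p of 0.0525 with the mouse as a block, and was lost without any 1 of the 6 mice compared (log2 fold changes 3.30 to 4.45). That of Svep1 held in 9 of 18 and was lost without senescent mouse 5 (1.98) or 6 (1.97) or mouse 4 (1.92), 5 (2.09) or 6 (2.28) of the treated group, while without senescent mouse 4 it was 3.13 and still called.

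Tek is also an endothelial marker, the only 1 of 9 tested that was called at 100 µg/mL, against 1.1% of all genes called higher and 1.6% lower. The 15 endothelial markers summed to 85.4 to 143 CPM in untreated senescent samples and 89.3 to 135 CPM with 100 µg/mL, a sum made up mostly of Eng (95.2 ± 31.0 and 89.8 ± 15.9 CPM). Cldn5 was at 0 in both groups. The tested endothelial markers moved in both directions. Esam fell without overlap at 100 and 300 µg/mL (log2 −2.28 and −1.94) and did not pass the test. Beside Tek, Esam and Erg, at 100 µg/mL Egfl7, Kdr and Eng were lower and Pecam1, Emcn and Vwf higher. None of these passed. Erg, an endothelial transcription factor, had 0.584 ± 0.480 CPM in untreated senescent cells, 6.09 ± 4.54 CPM with 100 µg/mL and 7.80 ± 1.79 CPM with 300 µg/mL. Its values did not overlap at either dose, and it did not pass the test (log2 3.39, adjusted p = 0.0555, and 3.75, adjusted p = 0.0597), while 4 of 17 alternatives called it at each dose: DESeq2, no filter on low counts, and the offsets with and without the block. The 10 pericyte and smooth muscle markers summed to 3325 to 4537 CPM in treated and 5264 to 7666 CPM in untreated senescent samples, mostly through Acta2 (4601 ± 952 CPM untreated and 2694 ± 473 with 100 µg/mL). Of the 10, 1 was called higher and 1 lower at 100 µg/mL, against 1.1% and 1.6% of all genes. At 300 µg/mL it was 0 and 1, against 0.752% and 0.885%. From control to senescent MEFs 2 were called higher (Notch3 and Myh11) and 0 lower, against 4.47% and 3.95%. Cnn1, a smooth muscle calponin, fell from 777 ± 232 to 336 ± 78.1 and 335 ± 66.2 CPM, whereas Rgs5, a pericyte marker, rose from 4.93 ± 3.12 to 47.1 ± 22.1 CPM with 100 µg/mL (log2 3.25, adjusted p = 0.0283). The calls of Cnn1 (log2 −1.21, adjusted p = 0.0196, and −1.22, adjusted p = 0.0269) held in 13 and 12 of 18 alternatives, and leaving out 1 mouse gave −1.36 to −0.78 and −1.35 to −0.91. They were lost without senescent mouse 5 or 6, without mouse 4 or 6 with 100 µg/mL and without any 1 mouse with 300 µg/mL. That of Rgs5 held in 11 of 17 and was lost without senescent mouse 5 (3.23) or 6 (3.15) or treated mouse 4 (3.07) or 5 (3.02). Without senescent mouse 4 Rgs5 stood at 4.13, and with the offsets at 2.55. With 300 µg/mL Rgs5 had 31.6 ± 19.0 CPM, without overlap, and did not pass the test (log2 2.68, adjusted p = 0.0794). Notch3 (15.7 ± 9.85 and 72.7 ± 21.8 CPM) and Abcc9 (1.73 ± 1.14 and 5.72 ± 2.98 CPM) rose without overlap between untreated cells and 100 µg/mL and did not pass the test. Cspg4 (422 ± 41.9 and 253 ± 30.6 CPM), Mcam (265 ± 53.8 and 180 ± 28.3 CPM) and Acta2 fell without overlap and did not pass either. The part of these markers in the values of the 10 genes was not tested.

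Proteins that process VEGF-C and VEGF-D (6 listed and tested) and other angiopoietin-like genes (6 listed, 3 tested) had 0 calls in the 3 comparisons. Their median log2 fold changes in senescence, at 100 and at 300 µg/mL were −0.41, −0.16 and −0.02 for the processing genes and 1.17, 0.34 and −0.09 for the angiopoietin-like genes.

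The factors that induce Vegfa and Angptl4 in textbook accounts were listed as well. Of 8 tested genes of the HIF pathway, the oxygen-sensing factors and their prolyl hydroxylases, 0 were called in any of the 3 comparisons, with medians of 0.11, 0.80 and 0.36 on the log2 scale. Of 18 hypoxia target genes, 1 was called in each, always higher. Of all genes, 4.47% were called higher in senescence, 1.1% at 100 µg/mL and 0.752% at 300 µg/mL. The shares called lower were 3.95%, 1.6% and 0.885%. Ankrd37 rose in senescence from 2.58 ± 1.53 to 8.10 ± 0.865 CPM (log2 fold change 1.63, adjusted p = 0.0462), held in 9 of 18 alternatives and was not called with the mouse as a block (adjusted p = 0.0751). It was lost without control mouse 4 (1.70) or 6 (1.26) or senescent mouse 4 (1.61) or 5 (1.58), and 61.7% of its exonic bases lie opposite Ufsp2. Ndrg1, a stress-induced gene of growth arrest, rose from 8.29 ± 3.24 CPM to 27.9 ± 4.15 CPM with 100 µg/mL (1.75, adjusted p = 0.0164, 14 of 18 alternatives) and to 25.6 ± 8.23 CPM with 300 µg/mL (1.63, adjusted p = 0.0326, 7 of 18, and 0.0637 with the mouse as a block). The first call was lost without any 1 treated mouse (log2 fold changes 1.63 to 1.84), and the second without senescent mouse 4 (1.73) or 6 (1.41) or any 1 treated mouse (1.33 to 1.78). Ndrg1 overlaps 2 noncoding RNAs of the opposite strand.

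Of 15 PPAR factors and target genes, 1 was called in senescence and 0 at 300 µg/mL, against the shares of all genes given above. Cpt1a, which brings long-chain fatty acids into mitochondria, rose from 25.6 ± 2.37 to 53.9 ± 22.4 CPM in senescence (1.08, adjusted p = 0.0195, 11 of 18 alternatives), a call that was lost without any 1 of the control mice (1.02 to 1.13) and without senescent mouse 4 (0.87) or 5 (0.91).

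**Figure D4:**
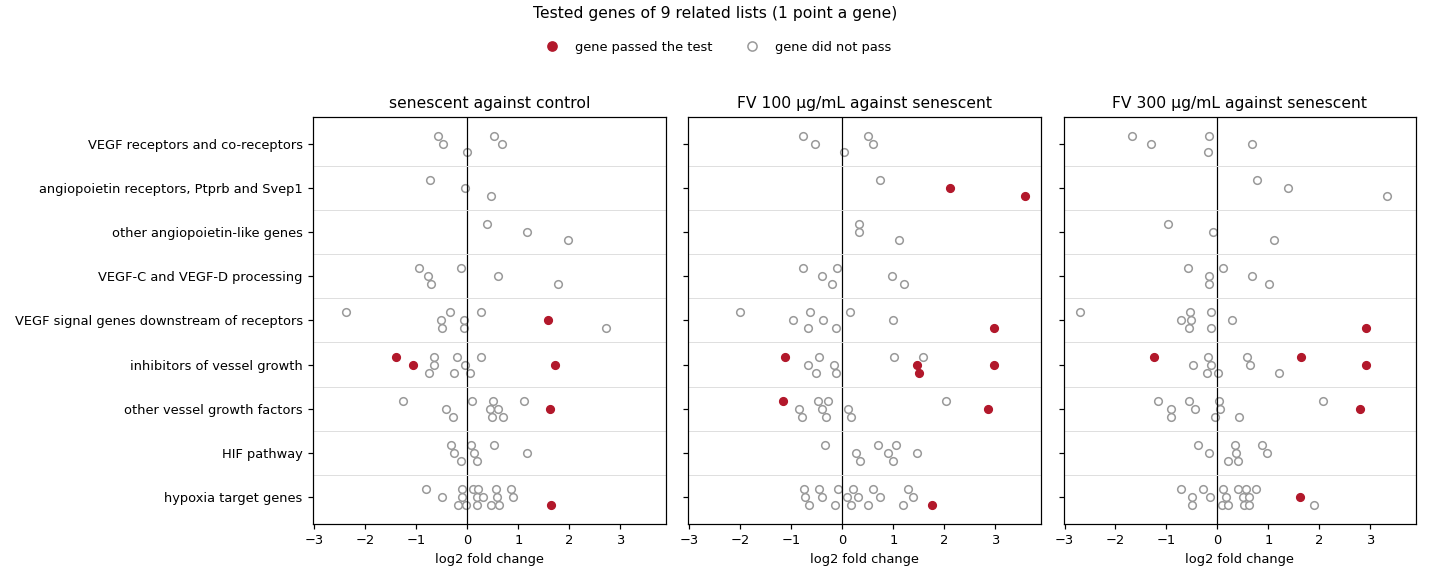
Log2 fold change (x axis) of each tested gene of 9 related lists in 3 comparisons, the PPAR list not being drawn, 1 point a gene; filled points passed the test. No VEGF receptor, VEGF-C or VEGF-D processing gene, other angiopoietin-like gene or HIF pathway gene is filled in any panel, and in the row of angiopoietin receptors, Ptprb and Svep1 the receptor Tek and the matrix protein Svep1 are filled at 100 µg/mL.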

How the data were processed

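RNA of MEFs from 3 mice a group was sequenced, as described above. The authors trimmed reads with Trimmomatic, aligned them to GRCm39 with STAR 2.7.11b and counted them with RSEM 1.3.1 (submitters' processing notes), and deposited expected counts per gene, not normalized, together with TPM, which RSEM scales for length and library size. Libraries were made with a stranded total RNA kit, and whether counting used strand is not given in the sources used here.

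Expected counts were rounded, and the 2 libraries of control mouse 5 were summed. Differences were tested in edgeR 4.0.16 (R 4.3.3) by the quasi-likelihood test with TMM factors, genes kept by filterByExpr (minimum count 10), 1 fit of all 12 samples by group, and Benjamini-Hochberg adjustment over 15034 genes in each of 6 comparisons. The self-test on simulated counts was run first. CPM are scaled by TMM, TPM were used only between genes, and the offsets for single-transcript bases were chosen after seeing the data. The depth of 22782536 to 31278750 counts a library leaves control Angpt1 (3 to 31 counts a sample), control Vegfd (0 to 97) and Vegfc (12 to 88) at few counts. The members and gene lists were chosen with earlier results of these data known.

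Named were all 10 members, the called genes of each list (at most 4 per list and comparison), and the 3 genes most similar to each member called at a dose. Mouse numbers come from the labels. The main fit did not use them, and the mouse was a block only in an alternative. Xist had 2357 to 6433 counts in mouse 4 of each group and at most 3 in the others. This sets mouse 4 apart but cannot tell the other mice from each other, so their recurrence rests on the labels. Correlations of same-numbered deviations had a median of −0.0061 over 18 pairs (−0.20 to 0.42), 8 of them over 0.1. Alternatives were DESeq2 1.42.0, RLE factors, other filters, only the groups compared, library 5(1) or 5(2) alone or apart, the mouse as a block, the adjusted p alone, and each mouse left out. Promoter windows were read from the GRCm39 genome before each gene's first annotated base. The other experiments of the study are not analysed here. A result among the gene lists is not reported here.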

Additional observations from a re-analysis of the deposited data

How the results depend on the processing

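The number of the 10 genes called was 3 (senescent against control), 2 and 2 (100 and 300 µg/mL against senescent), 0 (between doses), and 5 and 4 (100 and 300 µg/mL against control). Requiring 10 counts in every sample gave 1, 1 and 1 for the first 3 comparisons and 3 for 100 µg/mL against control, since Angpt1 and Vegfd then leave the test. With only the 2 groups in the fit 0 were called in senescence and 1 at 300 µg/mL, and with the libraries of control mouse 5 apart or either alone 1 was called at 300 µg/mL; the cause was not tested. At 100 µg/mL 3 were called with no filter, with DESeq2 or with only the 2 groups in the fit, Vegfd being the added gene. No filter added Vegfd at 300 µg/mL too. Leaving out 1 mouse gave 2 to 3 in senescence, 1 to 2 at 100 µg/mL, 0 to 2 at 300 µg/mL (0 without mouse 6 of that group), 0 between doses, and 4 to 5 and 3 to 5 against control. With the mouse as a replicate block the counts were 2, 2, 2, 0, 5 and 6, and beside the changes given in the report the block ended the calls of Sema3e in senescence (log2 fold change −0.97) and Thbs2 at 100 µg/mL (adjusted p = 0.0616) and no other call of a named gene. With offsets for the single-transcript share the counts were 3, 2, 2, 0, 4 and 4.

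Over all single genes and alternatives, 1205 values kept direction and side of the threshold, 146 lost a call, 19 gained one and 52 changed sign. All that changed sign were differences that had not passed the test. Vegfb at 100 µg/mL against senescent (−0.04) was 0.047 with DESeq2, 0.047 with RLE factors, 0.041 with no filter, 0.052 with the strict filter and 0.048 with 2 groups, and −0.16 to 0.46 with 1 mouse left out. Vegfc in senescence (−0.05) was 0.32 with library 5(1) alone, 0.21 with the block, 0.13 with offsets and 0.31 with offsets and block (−0.47 to 0.66 with 1 mouse out). At 100 µg/mL against senescent it was −0.064 with the block, −0.29 with offsets and −0.34 with both (−0.30 to 0.48). Against control at 100 µg/mL it was −0.33 with library 5(2) alone, −0.15 with offsets and −0.024 with both (−0.35 to 0.91), and at 300 µg/mL −0.93 to 0.20 with 1 mouse out. Angptl2 in senescence was 0.0077 with library 5(1) alone and 0.023 with offsets (−0.27 to 0.14). With offsets, and with offsets and block, it was −0.17 and −0.14 at 100 µg/mL and 0.014 and 0.011 at 300 µg/mL against senescent (−0.17 to 0.25 with 1 mouse out at 300 µg/mL). Against control it was −0.14 and −0.15 at 100 µg/mL (−0.025 to 0.32 with 1 mouse out) and 0.037 and 0.0057 at 300 µg/mL (−0.15 to 0.059). With 1 mouse out, Vegfa ran from −0.40 to 0.24 in senescence, −0.16 to 0.030 at 300 µg/mL against senescent and −0.47 to 0.17 against control. In the same way Vegfb at 300 µg/mL ran from −0.25 to 0.27, Angptl4 from −0.52 to 0.49 and −0.31 to 0.54 at the 2 doses, Angpt2 at 300 µg/mL from −0.076 to 1.06 and Pgf between doses from −0.020 to 0.33.

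Vegfa had the same rank among the 10 genes in each group by TMM-scaled CPM per kilobase as by TPM.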

Other observations

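Other factors and inhibitors of vessel growth moved in these cells, in lists chosen as above. Of 11 tested genes listed as inhibitors, 1 rose and 2 fell in senescence, 3 rose and 1 fell at 100 µg/mL, and 2 rose and 1 fell at 300 µg/mL, with median log2 fold changes of −0.25, −0.12 and 0.016, against the shares of all genes called that the report gives. Timp3, a matrix metalloproteinase inhibitor that also blocks VEGFR2, rose in senescence from 346 ± 50.7 to 1139 ± 278 CPM (n = 3, log2 fold change 1.72, edgeR adjusted p = 0.000177) in all 18 alternatives. It fell to 522 ± 66.1 CPM with 100 µg/mL (−1.13, adjusted p = 0.00862) and 481 ± 25.9 CPM with 300 µg/mL (−1.24, adjusted p = 0.00875), each in 14 of 18 alternatives. The first of these was lost without senescent mouse 4 (−0.72) or 5 (−1.04), and the second without senescent mouse 4 (−0.95) or mouse 6 of the treated group (−1.22). With offsets for the single-transcript share, of which Timp3 has 93.2%, the log2 fold change at 100 µg/mL was −1.74 and the adjusted p at 300 µg/mL was 0.16, and 21.3% of its exonic bases lie opposite Syn3.

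Adamts1, a protease that binds VEGF-A and frees anti-angiogenic parts of thrombospondins, stood in this list and in that of VEGF signal genes. It had 135, 125 and 33.1 CPM in untreated senescent mice 4, 5 and 6, 805, 682 and 811 CPM with 100 µg/mL, and 809, 654 and 750 CPM with 300 µg/mL. Treated samples lay far above untreated ones (2.97, adjusted p = 0.00387, and 2.91, adjusted p = 0.00501), and both calls held in all 18 alternatives. Sema3f, a ligand of the co-receptor neuropilin-2, rose from 27.6 ± 9.61 CPM to 78.0 ± 14.0 CPM (1.50, adjusted p = 0.00956, lost without treated mouse 4 at 1.42) and 86.0 ± 17.7 CPM (1.64, adjusted p = 0.0101, lost without treated mouse 6 at 1.61). Thbs2, a matrix glycoprotein that restrains vessel growth, rose at 100 µg/mL from 330 ± 51.9 to 909 ± 132 CPM (1.46, adjusted p = 0.0407) in 7 of 18 alternatives, not without any 1 of the 6 mice compared (1.35 to 1.70). The 2 that fell in senescence were Vash2 and Sema3e. Vash2 was listed here beside its relative Vash1 but is mainly described as promoting vessel growth. It fell from 40.7 ± 5.47 to 15.4 ± 1.71 CPM (−1.40, adjusted p = 0.00322), and Sema3e from 55.7 ± 21.8 to 26.7 ± 5.43 CPM (−1.06, adjusted p = 0.0466). The latter call was lost without control mouse 5 (−1.13) or 6 (−0.71) or any 1 senescent mouse (−1.22 to −0.93).

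Of 11 other vessel growth factors tested, 1 rose in senescence, 1 rose and 1 fell at 100 µg/mL, and 1 rose at 300 µg/mL, against the same shares of all genes. Ptn, the heparin-binding growth factor pleiotrophin, had 32.3, 30.1 and 30.4 CPM in untreated senescent cells, 154, 140 and 377 CPM with 100 µg/mL and 159, 121 and 368 CPM with 300 µg/mL. Mouse 6 was highest at both doses, and every treated sample lay above every untreated one (2.85, adjusted p = 0.00801, and 2.80, adjusted p = 0.0116). Without treated mouse 6 the first was 2.25 and still called, and the second call was lost (2.18, adjusted p = 0.0604). Ecm1, a secreted matrix protein, rose in senescence from 246 ± 31.5 to 756 ± 142 CPM (1.62, adjusted p = 0.000287) and fell to 339 ± 35.6 CPM with 100 µg/mL (−1.16, adjusted p = 0.00862), the latter not without senescent mouse 6 (−0.84) or treated mouse 5 (−1.10). Among 9 VEGF signal genes tested, Rcan1, a calcineurin regulator, rose in senescence from 43.4 ± 8.19 to 130 ± 48.6 CPM (1.58, adjusted p = 0.00334) and held in all 18 alternatives.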
